A study of Mus musculus with 20 samples.

Results

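Annexins are calcium-dependent phospholipid-binding proteins, and this account follows the RNA of 10 of them in mouse liver: Anxa1, Anxa2, Anxa3, Anxa4, Anxa5, Anxa6, Anxa7, Anxa9, Anxa11 and Anxa13. The members were chosen by gene symbol, and they are 10 of the 20914 genes in the deposited count table. The family was picked with its knockout response already known, so its KO against WT values are a description and carry no p-value. All 10 passed the filter on low counts, which left 13670 genes for testing.

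Bulk RNA came from the left lateral lobe of the liver of 20 males, all 8 weeks old and of strain label LiB12cKO. The 10 knockout (KO) mice had the genotype HSD17B12lox/lox;Alb-CreCre/WT, and the 10 wild-type (WT) mice HSD17B12lox/lox;Alb-CreWT/WT, so both groups carried the floxed alleles. Cre recombinase under the albumin promoter acts chiefly in hepatocytes, and Hsd17b12 encodes a reductase of very-long-chain fatty acid elongation. Which other liver cells kept the gene was not measured in this bulk RNA. Cre was present in every KO mouse and in no WT mouse, so an effect of Cre and an effect of the lost gene cannot be told apart. In bulk tissue fewer cells of a type and less RNA per cell of that type cannot be told apart, and the same holds for more.

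An annexin has a conserved core of repeats that binds acidic phospholipids, chiefly phosphatidylserine, through calcium ions, and a variable N-terminus that binds partners such as S100 proteins. Annexins are recruited to membranes when cytosolic calcium rises, and they are known for roles in membrane repair, vesicle traffic, fibrinolysis and the recognition of dying cells. In normal liver Anxa6 is known as an abundant hepatocyte annexin, while Anxa1, Anxa2, Anxa3 and Anxa5 are also used by bile duct, stromal, endothelial or myeloid cells.

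Between 16693195 and 24895938 fragments per KO mouse and between 19676907 and 29124124 per WT mouse were assigned to genes. Levels are CPM (counts relative to library size) scaled by TMM (trimmed mean of M values) factors, which were 1.05 to 1.24 in KO and 0.787 to 0.974 in WT and did not overlap. With library size alone the median over all tested genes, as a log2 fold change, moved from -0.025 to 0.44, a shift of 0.47, so small changes depend on the scaling. Hsd17b12 RNA (mm10 chromosome 2, 94032697 to 94157909) averaged 47.8 ± 2.39 CPM over KO mice and 152 ± 18.5 CPM over WT mice (SD, n = 10 per genotype), and the genotypes did not overlap. Mouse KO_391 stood apart in several results below although its Hsd17b12 level, 50.6 CPM, lay within the 44.2 to 51.3 CPM of the KO group. The 8 hepatocyte markers, albumin among them, were abundant in every mouse, with sums of 48607 to 61779 CPM in KO and 81782 to 111206 CPM in WT.

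The 250 bases before the RefSeq start sites (build GRCm38.p6, which has the coordinates of mm10) are shown for 4 members, the 3 with the largest fold changes and the 1 member that was lower in KO. Sequences were found for 7 of the 10 members. Capitals mark exact matches, on either strand, to 1 of 6 motifs: the AP-1 site TGANTCA, the TATA box TATAAA, the GC box GGGCGG, the CCAAT box CCAAT, the TEAD site GGAATG and a PPAR direct repeat, 2 copies of AGGTCA spaced by 1 base. The Anxa2 window is chr9:69453433-69453682 (plus strand), that of Anxa5 chr3:36475888-36476137 (minus strand), that of Anxa7 chr14:20480134-20480383 (minus strand) and that of Anxa11 chr14:25841905-25842154 (plus strand). Each is printed 5′ to 3′ in the direction of transcription.
Anxa2: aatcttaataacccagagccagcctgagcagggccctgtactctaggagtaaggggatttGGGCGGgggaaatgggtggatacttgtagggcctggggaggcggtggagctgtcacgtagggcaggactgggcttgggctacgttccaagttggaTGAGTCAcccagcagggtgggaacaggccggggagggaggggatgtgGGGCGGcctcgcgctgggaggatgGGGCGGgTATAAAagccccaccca
Anxa5: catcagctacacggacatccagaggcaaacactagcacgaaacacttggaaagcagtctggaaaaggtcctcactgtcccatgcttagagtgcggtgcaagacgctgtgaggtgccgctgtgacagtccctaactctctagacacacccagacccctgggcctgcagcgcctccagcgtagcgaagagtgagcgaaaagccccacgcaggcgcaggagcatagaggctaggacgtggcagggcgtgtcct
Anxa7: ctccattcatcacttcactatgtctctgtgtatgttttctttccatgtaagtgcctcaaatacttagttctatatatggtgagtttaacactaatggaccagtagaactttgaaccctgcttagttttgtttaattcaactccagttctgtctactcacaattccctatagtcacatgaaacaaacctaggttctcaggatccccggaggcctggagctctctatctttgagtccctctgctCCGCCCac
Anxa11: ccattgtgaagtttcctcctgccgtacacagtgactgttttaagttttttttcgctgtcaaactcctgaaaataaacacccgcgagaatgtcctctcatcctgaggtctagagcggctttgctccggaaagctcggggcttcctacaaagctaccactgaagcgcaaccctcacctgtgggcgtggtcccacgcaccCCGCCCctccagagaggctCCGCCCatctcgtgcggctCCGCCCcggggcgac
The Anxa2 window held an AP-1 match whose first base lay 95 bases before the start, a TATA box 17 bases before it, and GC boxes at 190, 48 and 24 bases. The Anxa5 window held none of the 6 motifs. A single GC box began 8 bases before the Anxa7 start used for the printed window. RefSeq has another Anxa7 start, at position 20479941, and its window, not printed, held 4 GC boxes at 200, 71, 57 and 28 bases. For Anxa11, GC boxes lay 53, 34 and 15 bases before the start. Among 32851 RefSeq windows of the same length, 6.75% held the AP-1 letters, 12.4% TATAAA, 32.7% the GC box, 33.8% CCAAT, 12.6% the TEAD letters and 0.0335% the PPAR repeat. A match describes letters in these windows and is not evidence of binding.

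Of the 10 annexins, 8 were called higher in KO, 1 lower (Anxa11) and 1 was not called (Anxa13), by edgeR's quasi-likelihood test with Benjamini-Hochberg adjustment at 0.05. Over all 13670 tested genes 59.2% were called, 28.2% higher and 31.0% lower. The members' median log2 fold change was 0.63, against -0.025 over all tested genes. Only Anxa2, Anxa5 and Anxa7 were at least 2-fold higher and called, a class that held 7.69% of all tested genes. In 4 members, Anxa2, Anxa4, Anxa5 and Anxa7, every KO mouse lay above every WT mouse, as in 7.1% of all tested genes. In 0 members did every KO mouse lie below every WT mouse, against 6.47% of all tested genes. With library size alone all 10 members were called higher and 0 lower, when 75.1% of all genes were called, 68.4% higher and 6.71% lower, and the members' median was then 1.10 against 0.44.

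**Figure D1:**
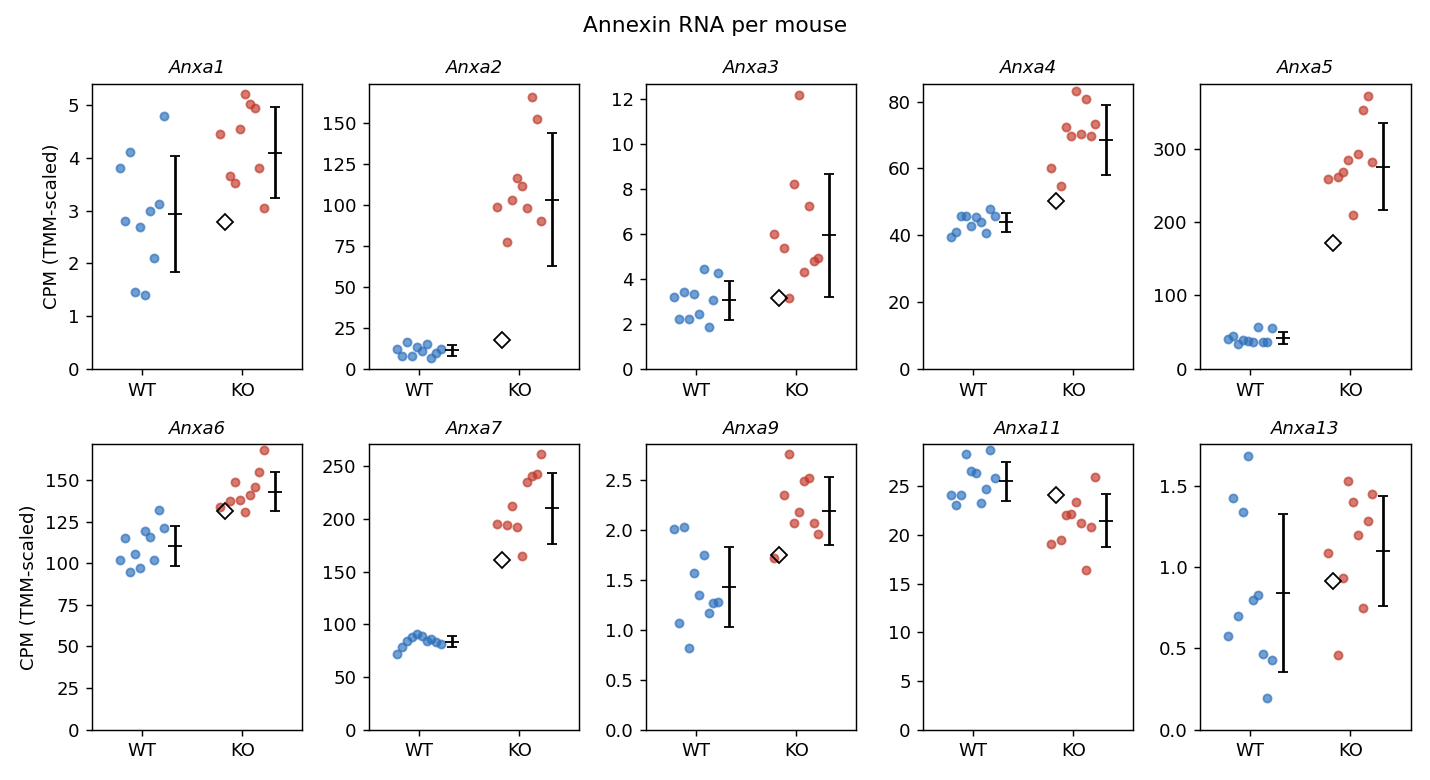
RNA of each annexin in each mouse, in TMM-scaled CPM on linear axes that start at 0. Points are mice, the open diamond is mouse KO_391, and bars are mean ± SD of 10 mice. The genotypes do not overlap for Anxa2, Anxa4, Anxa5 and Anxa7.

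Anxa2 binds S100a10 as a heterotetramer at the plasma membrane, where it is known to assemble plasminogen and its activator. The gene lies at mm10 chromosome 9, 69453683 to 69491785, with 13 exon blocks in the deposited annotation. Its level was 6.50 CPM in the lowest WT mouse, 11.5 at the median and 16.6 in the highest, and 17.8, 100.7 and 165.7 CPM in KO. All KO mice were above all WT mice, but mouse KO_391 at 17.8 CPM sat next to the WT range while the other 9 began at 77.2 CPM. KO mice averaged 103 ± 40.5 CPM and WT mice 11.2 ± 3.33 CPM (SD, n = 10 per genotype), a log2 fold change of 3.20 (SE 0.28) and the 107th highest of 13670 genes. Without mouse KO_391 it was 3.35. The SD of log2 CPM among KO mice was 0.89 with that mouse and 0.35 without it, against 0.44 among WT mice.

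Anxa5 binds phosphatidylserine on cell surfaces and is known as an anticoagulant and as a probe for apoptotic cells. It lies at mm10 chromosome 3, 36448923 to 36475887, where an exon of a gene without a symbol overlaps on the opposite strand. WT mice ranged from 33.3 to 56.9 CPM with a median of 39.2, and KO mice from 171.9 to 371.5 CPM with a median of 275. The gap between the groups was wide, and mouse KO_391 was again the lowest KO mouse. With averages of 275 ± 58.9 CPM among KO mice and 41.9 ± 8.08 CPM among WT mice (SD, n = 10 per genotype), the log2 fold change was 2.71 (SE 0.13), or 2.80 without mouse KO_391.

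Anxa7 and Anxa11 share a long N-terminus, Anxa7 being known for membrane fusion in secretion and Anxa11 for tethering RNA granules to lysosomes. Both lie on chromosome 14, Anxa7 at 20455261 to 20480133 and Anxa11 at 25842155 to 25886804 (mm10). For Anxa7 the lowest, median and highest WT values were 71.8, 83.8 and 90.9 CPM, and the KO values were 160.5, 203.6 and 261.1 CPM. The 2 groups were far apart, and Anxa7 varied little among WT mice. The log2 fold change was 1.33 (SE 0.081), from averages of 210 ± 34.1 CPM among KO mice and 83.6 ± 5.55 CPM among WT mice (SD, n = 10 per genotype).

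Anxa11 moved the other way. WT mice held 23.1 to 28.7 CPM with a median of 25.3, and KO mice 16.4 to 26.0 CPM with a median of 21.6. The groups overlapped, and mouse KO_391 at 24.1 CPM was among the highest KO mice. The log2 fold change was -0.25 (SE 0.070) with TMM factors and turned to 0.22 with library size alone, so its sign depended on the scaling. Of the distinct 50-base sequences in the Anxa11 transcripts of GENCODE, 16.2% also occur in other genes (Gm2260, Gm2274 and Anxa11os). Gm2274 had a log2 fold change of -0.27 (SE 0.11, edgeR adjusted p = 0.0324) and Gm2260 one of -0.31 (SE 0.14, edgeR adjusted p = 0.0540). Reads of these genes could be split by the authors' counting, so the Anxa11 value is uncertain. For the other members at most 3.22% of such sequences were shared.

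Anxa4, which forms lattices on membranes and is known from epithelia, including bile ducts, lies at mm10 chromosome 6, 86736840 to 86793584. It ranged from 39.4 to 47.8 CPM in WT, with a median of 44.7, and from 50.3 to 83.2 CPM in KO, with a median of 70.1. The groups did not overlap although the change was modest, with a log2 fold change of 0.64 (SE 0.076).

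Anxa6, unusual in having a doubled core, lies at mm10 chromosome 11, 54978962 to 55033471, with 26 exon blocks against 13 for Anxa2, Anxa4, Anxa5 and Anxa7. Its WT values ran from 94.6 to 132.1 CPM (median 110.6) and its KO values from 130.8 to 167.8 CPM (median 139.5). A single WT mouse reached into the KO range. The log2 fold change was 0.37 (SE 0.064).

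The remaining 4 members were rare transcripts in both genotypes. Anxa3 was between 1.87 and 4.42 CPM in WT (median 3.13) and between 3.13 and 12.2 CPM in KO (median 5.16), with a log2 fold change of 0.96 (SE 0.22). The groups overlapped, and mouse KO_416 gave the highest value. Anxa9, an annexin with degenerate calcium sites, lay between 0.817 and 2.03 CPM in WT (median 1.31) and between 1.72 and 2.76 CPM in KO (median 2.13). The groups overlapped, and the log2 fold change was 0.61 (SE 0.16). Its exons overlap those of Mindy1 on the opposite strand (mm10 chromosome 3, 95296093 to 95307176), and no source used here gives the strand setting of the counting.

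Anxa1 is induced by glucocorticoids and its N-terminal peptide acts on formyl peptide receptors. It was 1.41 to 4.79 CPM in WT (median 2.90) and 2.78 to 5.22 CPM in KO (median 4.13), with overlap between the groups. The log2 fold change was 0.48 (SE 0.19). That call was lost in 8 of 20 fits that left out 1 mouse, those without WT_390, WT_407, WT_408, WT_409, WT_427, KO_416, KO_425 and KO_434. Over all 20 such fits the value ran from 0.40 to 0.58.

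Anxa13, known from intestinal and kidney epithelium, was the rarest member by counts, with 4 to 32 fragments in WT mice and 11 to 45 in KO mice. It reached 0.195 to 1.68 CPM in WT (median 0.746) and 0.462 to 1.53 CPM in KO (median 1.14). The KO range lay inside the WT range. The log2 fold change of 0.39 (SE 0.29) was not called, while library size alone gave 0.88 and a call. Anxa8 had 0 to 12 fragments per mouse and was below the filter.

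**Figure D2:**
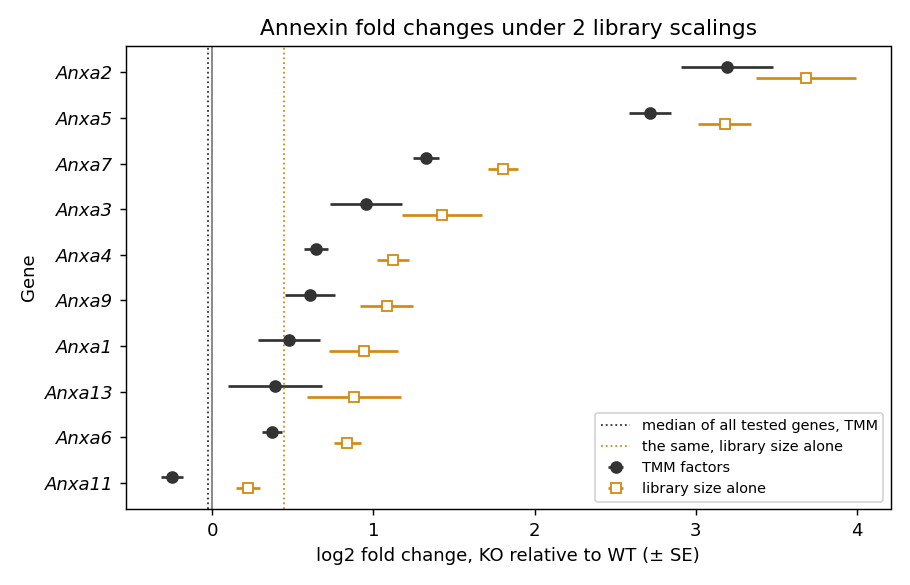
Log2 fold change of each annexin, KO relative to WT, with TMM factors (filled circles) and with library size alone (open squares). Bars are ± SE and dotted lines are the medians of all tested genes. Anxa2, Anxa5 and Anxa7 lie well to the right under both scalings, and Anxa11 changes sign.

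In the authors' deposited table the log2 fold changes had the same signs: 2.97 for Anxa2, 2.68 for Anxa5, 1.31 for Anxa7 and -0.24 for Anxa11. The authors' deposited table of gene ontology terms listed calcium-dependent phospholipid binding, with 28 annotated genes, at an FDR of 0.544 among 668 terms.

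Levels were compared between members per length, in the deposited RPKM, which divides the scaled level by transcript length. In WT liver Anxa6 was first at 41.4 ± 4.60 RPKM, above Anxa7 in all 10 mice and without overlap. Anxa7 (28.1 ± 1.90), Anxa5 (24.2 ± 4.65) and Anxa4 (21.8 ± 1.35 RPKM) followed with overlapping ranges (SD, n = 10). Anxa11 (10.6 ± 0.836) and Anxa2 (8.15 ± 2.38 RPKM) overlapped each other, and Anxa2 was above Anxa1 in all 10 WT mice and without overlap. Anxa1, Anxa3, Anxa13 and Anxa9, at 2.09, 1.90, 0.725 and 0.721 RPKM, each overlapped the next in this order.

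In KO liver the order was different. Anxa5 led at 159.7 ± 33.9 RPKM and was above Anxa2 in all 10 mice. Anxa2 (74.9 ± 29.3) and Anxa7 (70.8 ± 11.5 RPKM) overlapped, with Anxa2 the higher in 6 of 10 mice. Anxa6 (53.8 ± 4.44) and Anxa4 (34.2 ± 5.19 RPKM) came next and did not overlap each other. Anxa11 (8.97 ± 1.16 RPKM) was sixth, and Anxa3, Anxa1, Anxa9 and Anxa13 stood at 3.71, 2.94, 1.11 and 0.947 RPKM. Anxa3 overlapped both of its neighbours, Anxa9 overlapped Anxa13, and Anxa1 did not overlap Anxa9.

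The summed RPKM of the 10 annexins averaged 411 ± 75.0 over KO mice and 139.9 ± 9.07 over WT mice (SD, n = 10 per genotype). Mouse KO_391 was the lowest KO mouse at 258.9, still above the highest WT mouse at 153.98. Shares of this sum are free of library scaling, since all members of a mouse are divided by the same factor. Anxa5 made up 38.7 ± 2.47% of the sum in KO and 17.3 ± 2.46% in WT. Its KO shares started at 32.7% and its WT shares ended at 21.4%, so they did not overlap. Anxa2 made up 17.6 ± 5.18% in KO and 5.82 ± 1.68% in WT. For Anxa2 mouse KO_391, at 5.05%, lay inside the WT range of 3.71 to 8.95%, while the other 9 KO mice lay between 15.1 and 23.3%. The Anxa5 share of mouse KO_391, by contrast, was 38.8%, close to the KO mean. Its shares of Anxa6 (19.2%), Anxa7 (21.1%), Anxa9 (0.344%) and Anxa11 (3.92%) lay above those of the other 9 KO mice. Those ended at 14.5%, 20.2%, 0.340% and 2.62%. Anxa6 went from 29.6 ± 2.34% in WT to 13.4 ± 2.36% in KO although its own level was higher in KO. Anxa4 (15.6% to 8.44%) and Anxa11 (7.62% to 2.28%) also held smaller shares in KO with no overlap, and Anxa7 shares overlapped (20.2% in WT, 17.4% in KO). The ratio of Anxa5 to Anxa6 RPKM was 0.435 to 0.759 in WT mice and 2.02 to 3.74 in KO mice.

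**Figure D3:**
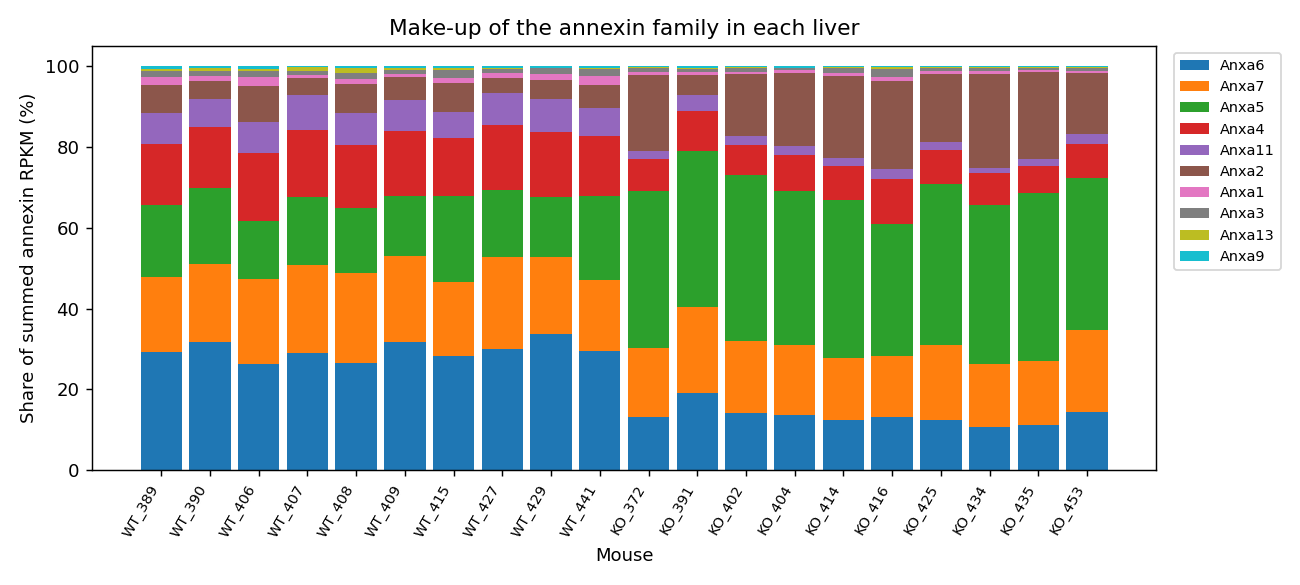
Share of each annexin in the summed RPKM of the 10 annexins, in percent, 1 bar per mouse. Anxa6 is the largest share in all 10 WT mice and Anxa5 in all 10 KO mice, and mouse KO_391 has an Anxa2 share of 5.05%, inside the WT range.

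S100 proteins are small dimers, most of which bind calcium, and several bridge 2 annexin molecules. Of 6 listed S100 ligands, 4 passed the filter on low counts, and 3 rose and 1 fell (edgeR, background 28.2% higher and 31.0% lower). The counts were the same with library size alone, when 68.4% of all tested genes were called higher and 6.71% lower. S100a4 (1 to 25 fragments per mouse) and S100b (0 to 3) were below the filter.

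S100a10, the partner of Anxa2, ranged from 43.8 to 132.4 CPM in WT (median 110.4) and from 193.5 to 349.2 CPM in KO (median 260.5). The groups did not overlap, and the log2 fold change was 1.53 (SE 0.18, edgeR adjusted p = 5.79e-07). Its WT values were uneven, with log2 CPM of 5.45 to 6.17 in WT_415, WT_427, WT_429 and WT_441. In the other WT mice they were 6.79 to 7.05, and the cause was not tested. S100a11, a ligand of Anxa1 and Anxa2, was 1.11 to 2.28 CPM in WT (median 1.89) and 5.56 to 28.9 CPM in KO (median 18.4). It did not overlap either and rose by 3.41 on the log2 scale (SE 0.24, edgeR adjusted p = 3.28e-10). S100a6, a ligand of Anxa11 and Anxa2, had medians of 1.35 CPM in WT and 2.53 CPM in KO with overlap. It rose by 1.29 (SE 0.38, edgeR adjusted p = 0.00567). Its WT range was 0.980 to 2.53 CPM and its KO range 0.914 (mouse KO_391) to 13.1 CPM (mouse KO_416). Over 20 fits that left out 1 mouse, its log2 fold change ran from 0.85 to 1.42. S100a1, better known as a calcium sensor of muscle, fell by 0.70 (SE 0.084, edgeR adjusted p = 3.64e-07), from a median of 89.2 CPM to 59.2 CPM, with no overlap.

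Per length, S100a10 RNA exceeded Anxa2 RNA in every mouse. The RPKM ratio of S100a10 to Anxa2 had a median of 19.4 in WT (8.75 to 30.2) and of 5.39 in KO, where mouse KO_391 had 22.9 and the other 9 mice 3.93 to 7.30. The ratio of S100a11 to Anxa1 had a median of 1.68 in WT (1.21 to 3.43) and of 12.1 in KO (5.54 to 19.1). S100a10 thus exceeded Anxa2 by less in 9 of the 10 KO mice, and S100a11 exceeded Anxa1 by more in all 10, than in any WT mouse.

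Relations within a genotype are not the contrast that chose the members, but the pairs were chosen with earlier results of these data known. In all, 8 relations were computed on log2 CPM (n = 10 mice each, two-sided permutation tests, Benjamini-Hochberg over the 8). Among KO mice Anxa2 followed S100a10 with r = 0.74 (permutation p = 0.00998, adjusted p = 0.0266) and rho = 0.44 (permutation p = 0.204, adjusted p = 0.273). Without the 2 mice farthest from the median Anxa2 level r was 0.45, and without mouse KO_391 alone it was 0.53 (permutation test, adjusted p = 0.270). Anxa1 followed S100a11 with r = 0.82 (permutation p = 0.00184, adjusted p = 0.0118) and rho = 0.81 (permutation p = 0.00747, adjusted p = 0.0598). Here r was 0.58 without 2 mice and 0.72 without mouse KO_391 (permutation test, adjusted p = 0.227). Anxa2 followed Anxa5 with r = 0.82 (permutation p = 0.00294, adjusted p = 0.0118) and rho = 0.62 (permutation p = 0.0594, adjusted p = 0.158). These values were 0.51 without 2 mice and 0.65 without mouse KO_391 (permutation test, adjusted p = 0.227). Each KO mouse was also left out in turn, an alternative chosen after seeing the data. The relations of Anxa1 with S100a11 and of Anxa2 with Anxa5 passed in 9 of 10 such tests, all but the one without mouse KO_391. That of Anxa2 with S100a10 passed in 7 of 10, and was lost without KO_391, KO_434 (r = 0.71, permutation test, adjusted p = 0.0791) or KO_435 (r = 0.73, permutation test, adjusted p = 0.0737). Anxa11 with S100a6 gave r = -0.087 (permutation p = 0.806, adjusted p = 0.806) and rho = -0.12 (permutation p = 0.760).

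Among WT mice 0 of the 4 relations passed. Pearson's r was 0.23 for Anxa2 with S100a10 (permutation p = 0.522, adjusted p = 0.620, rho = 0.50), 0.57 for Anxa1 with S100a11 (permutation p = 0.0880, adjusted p = 0.176, rho = 0.68), -0.47 for Anxa11 with S100a6 (permutation p = 0.166, adjusted p = 0.266, rho = -0.54) and 0.22 for Anxa2 with Anxa5 (permutation p = 0.543, adjusted p = 0.620, rho = 0.12). At an unadjusted p under 0.05 there were likewise 0 by Pearson's r, and 1 by rho, Anxa1 with S100a11 (permutation p = 0.0354, adjusted p = 0.142). Whether a relation differed between KO and WT was not tested.

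**Figure D4:**
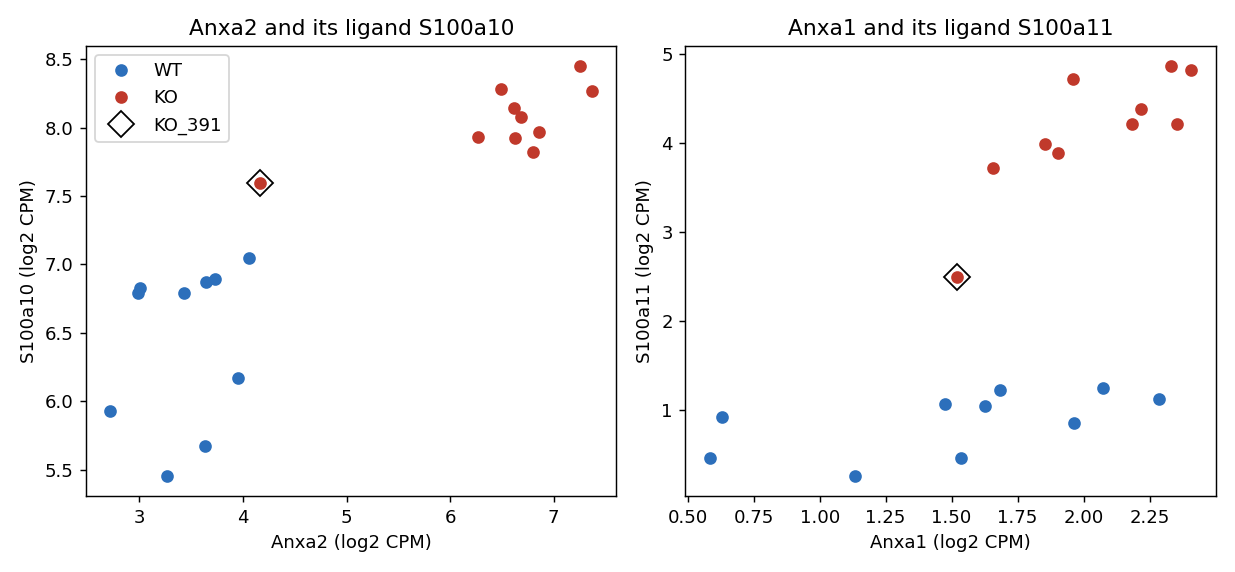
Log2 CPM of Anxa2 against S100a10 and of Anxa1 against S100a11 in each mouse, WT in blue and KO in red, with mouse KO_391 ringed by a diamond. Mouse KO_391 has the lowest Anxa2, S100a10, Anxa1 and S100a11 values of the KO mice. For Anxa1 only 3 KO mice lie above the highest WT mouse, and the others, KO_391 among them, lie inside the WT range.

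The genes whose log2 CPM, centred within genotype, followed Anxa2 most closely over the 20 mice were Fkbp1a (r = 0.89), Fuca2 (0.89), S100a11 (0.89), Mthfd2 (0.88) and Slc25a24 (0.87). Without mouse KO_391 these values of r were 0.70, 0.79, 0.74, 0.70 and 0.65, and the genes then ranked 30, 4, 9, 34 and 79, so the order of likeness changed with that mouse. For Anxa5 they were Serpinb9 (0.86), Pdzk1ip1 (0.85), Sptbn1 (0.83), Sccpdh (0.82) and Nfe2 (0.82), and without mouse KO_391 the values were 0.86, 0.81, 0.74, 0.74 and 0.75, at ranks 1, 4, 19, 24 and 16. The drop in r without that mouse was larger for each of the 5 genes beside Anxa2 than for any beside Anxa5. These are descriptions chosen as the highest of the tested genes with a symbol, predicted genes and pseudogenes left out, and the mice share a library scaling.

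The other annexin partners and receptors included the plasmin system, the formyl peptide receptors and calcium-binding adaptors. Of 13 listed genes 12 were tested, and 4 rose and 3 fell (edgeR, background 28.2% and 31.0%). Plat, the tissue plasminogen activator whose receptor is Anxa2 with S100a10, ranged from 0.306 to 1.27 CPM in WT and from 1.19 to 3.08 CPM in KO and rose by 1.70 (SE 0.22, edgeR adjusted p = 1.22e-06). Plaur, the urokinase receptor, had medians of 0.521 and 2.30 CPM and rose by 2.31 (SE 0.43, edgeR adjusted p = 1.07e-04), with mouse KO_391 at 0.358 CPM inside the WT range. Plg, the liver-made plasminogen that Plat cleaves, fell by 0.84 (SE 0.080, edgeR adjusted p = 1.24e-08), from 2222 to 3185 CPM in WT to 1160 to 1717 CPM in KO with no overlap. Ahnak, a large scaffold that binds the Anxa2 and S100a10 complex, rose by 0.68 (SE 0.11, edgeR adjusted p = 2.41e-05).

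Pdcd6 and Sri, calcium-binding adaptors of Anxa11 and Anxa7, are named after their values were seen and fell by 0.22 (edgeR adjusted p = 5.60e-04) and 0.15 (edgeR adjusted p = 0.0421), and both were higher with library size alone (0.26 and 0.31). The Sri call was lost in 16 of 20 fits without 1 mouse. Fpr1 and Fpr2, receptors for the Anxa1 peptide, had log2 fold changes of 0.31 and 0.011 and were not called. With library size alone 10 genes of the list were higher and 1, Plg, lower, against 68.4% and 6.71% of all tested genes.

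Membrane repair draws annexins, calpains, dysferlin-like proteins and the ESCRT-III machinery to calcium-flooded wounds. Of 19 listed genes 18 were tested, and 12 rose and 2 fell (edgeR, background 28.2% and 31.0%). The median log2 fold change was 0.32, against -0.025 over all tested genes. Capns1 and Capn2, the small and a large subunit of calpain, had medians of 117.8 and 47.4 CPM in WT and of 244.2 and 77.6 CPM in KO. They rose by 1.04 (SE 0.072, edgeR adjusted p = 1.45e-10) and 0.72 (SE 0.075, edgeR adjusted p = 4.70e-08), and in both genes the groups did not overlap. Chmp4b and the rarer Chmp4c, ESCRT-III filament subunits, rose by 0.63 (SE 0.080, edgeR adjusted p = 8.99e-07) and 2.38 (SE 0.29, edgeR adjusted p = 5.34e-07). Chmp4c had only 1 to 15 fragments in WT mice and 23 to 78 in KO mice. Dysf itself had a log2 fold change of 0.22 and was not called. Its relative Myof, named after its value was seen, rose by 1.52 (SE 0.23, edgeR adjusted p = 6.04e-06). The 2 that fell with TMM factors, also named after their values were seen, were Chmp2a (-0.24) and Smpd1 (-0.31, acid sphingomyelinase). With library size alone both turned higher (0.23 and 0.16). Trim72, below the filter and also named after its values were seen, had 1 to 12 fragments in KO mice and 7 to 106 in WT mice. Its level was 0.049 to 0.408 CPM in KO and 0.410 to 4.34 CPM in WT, without overlap, and was not tested.

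Other calcium-dependent membrane binders use C2 domains in place of the annexin core. Of 16 listed genes, copines among them, 13 were tested, and 7 rose and 1 fell (edgeR, background 28.2% and 31.0%). The protein kinases C Prkca and Prkcb rose by 1.22 (SE 0.10, edgeR adjusted p = 2.18e-09) and 0.75 (SE 0.13, edgeR adjusted p = 3.12e-05). Prkca was 5.25 to 8.69 CPM in WT and 11.1 to 18.9 CPM in KO, with mouse KO_391 the lowest KO mouse. The extended synaptotagmins Esyt1 and Esyt2, tethers between the endoplasmic reticulum and the plasma membrane, rose by 0.54 (SE 0.068, edgeR adjusted p = 6.50e-07) and 0.62 (SE 0.083, edgeR adjusted p = 1.60e-06). None of these 4 overlapped between the groups. Syt11, named after its value was seen, fell by 0.53 (SE 0.11, edgeR adjusted p = 3.28e-04), and its value was -0.06 and not called with library size alone. It was the only gene lower by TMM, and limma-voom with quality weights called 2 lower, as did edgeR fits without WT_406, WT_409, WT_415, WT_429 or KO_435. With library size alone 9 of the 13 tested genes were called higher and 0 lower, against 68.4% and 6.71% of all tested genes.

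Scramblases expose phosphatidylserine, the lipid that annexins bind, and flippases return it to the inner leaflet. Of 14 listed genes 13 were tested, and 3 rose and 3 fell (edgeR, background 28.2% and 31.0%). Ano6, a calcium-activated scramblase, was 4.62 to 10.6 CPM in WT and 16.2 to 30.8 CPM in KO and rose by 1.52 (SE 0.13, edgeR adjusted p = 2.01e-09). Plscr1, named as a phospholipid scramblase, was 12.4 to 21.1 CPM in WT and 29.5 to 53.6 CPM in KO and rose by 1.28 (SE 0.11, edgeR adjusted p = 1.77e-09). Xkr9, a caspase-activated scramblase, rose by 0.46 (SE 0.059, edgeR adjusted p = 9.07e-07). In all 3 the groups did not overlap.

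Atp8b1 and Plscr2, named after their values were seen, fell by 0.44 (edgeR adjusted p = 5.42e-06) and 0.56 (edgeR adjusted p = 0.00255). With library size alone Atp8b1 was at 0.02 and Plscr2 at -0.08, neither called. The count of higher genes was 5 without mouse KO_391 and 5 without mouse WT_441. It was 9 of 13 with library size alone, when 68.4% of all tested genes were called higher.

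**Figure D5:**
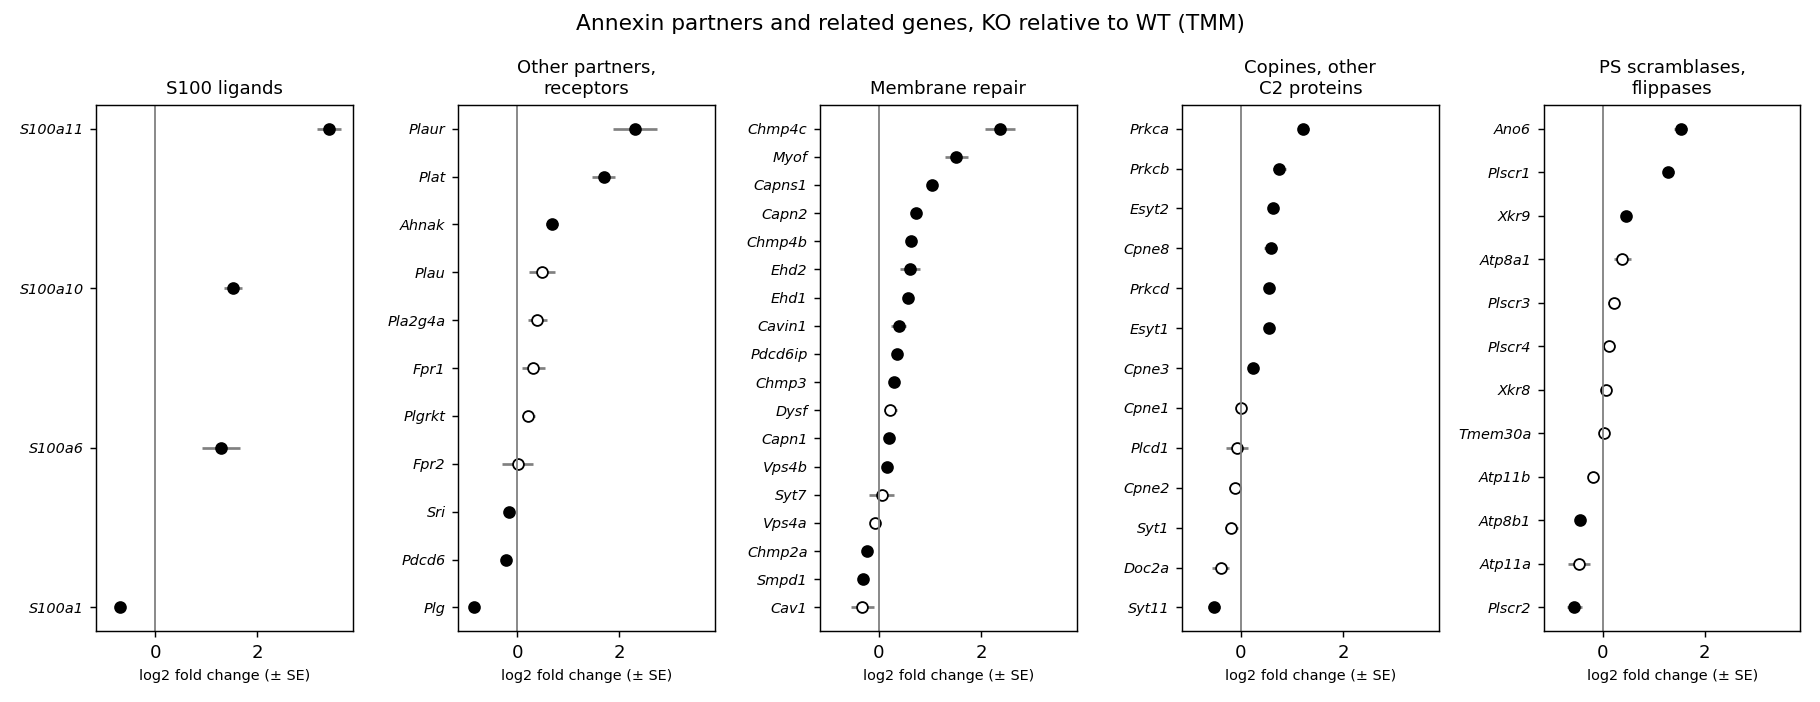
Log2 fold change (± SE), KO relative to WT with TMM factors, of tested genes of 5 lists: S100 ligands, other partners and receptors, membrane repair, copines and other C2 proteins, and phosphatidylserine (PS) scramblases and flippases. Filled points passed the test at an adjusted p under 0.05, open points did not. S100a11 and Chmp4c have the highest values of the S100 and membrane repair lists.

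Markers of several liver cell types moved with the annexins between the genotypes, and their part in the annexin values was not tested. The counts that follow are from edgeR with TMM factors, where 28.2% of all tested genes were called higher and 31.0% lower. Of 6 markers of lipid-associated macrophages all 6 rose, and their summed level was 47.9 to 192.5 CPM in KO, lowest in mouse KO_391, and 16.4 to 37.5 CPM in WT. Of 8 Kupffer cell and macrophage markers 6 rose (245 to 494.2 CPM in KO, 122.7 to 257.5 CPM in WT). For stellate cells and fibroblasts 7 of 8 rose (284.3 to 536.8 against 157.5 to 302.5 CPM). Among 8 cholangiocyte markers 6 were tested, 3 rose and 1 fell (76.8 to 226.7 against 30.9 to 65.3 CPM). The 3 that rose were Krt23 (26.4 CPM on average in KO, 6.53 in WT, no overlap), Spp1 (76.6 and 31.0 CPM) and Epcam (1.56 and 0.817 CPM), and Sox9 fell (4.96 and 8.56 CPM). The keratins Krt19 (1.67 and 1.21 CPM) and Krt7 (0.733 and 0.750 CPM) were not called, although Krt19 was called higher with library size alone, and Cftr was below the filter. Of 7 sinusoidal endothelium markers 4 rose (181.4 to 228.9 against 122.3 to 235.4 CPM).

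All 8 hepatocyte markers fell with TMM factors, and 5 of 8 with library size alone, when 6.71% of all tested genes were called lower. Smooth muscle (3 tested), neutrophil (2 tested) and mesothelium (2 tested) markers had 0 called in either direction by edgeR, DESeq2 or limma-voom, and at an unadjusted edgeR p under 0.05 there was 1, a mesothelium marker. Of 2 tested lymphocyte markers 1 fell, and of 5 tested erythroid and platelet markers 1 rose and 1 fell. The summed hepatocyte markers of mouse KO_391, 48607 CPM, were the lowest of the KO mice because of Alb (25968 CPM, its KO minimum). The other 7 hepatocyte markers summed to 22638 CPM in that mouse, the highest of the KO mice, which began at 14373 CPM. Its summed stellate (284.3 CPM), sinusoidal endothelium (181.4 CPM) and smooth muscle (9.65 CPM) markers were the lowest of the KO mice. Its Kupffer cell and macrophage (282.5 CPM) and cholangiocyte (79.3 CPM) sums each ranked 4 from the lowest. Neutrophil and lymphocyte sums of that mouse each ranked 2 from the lowest, erythroid and platelet markers ranked 9, and mesothelium markers were the highest.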

How the data were processed

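Total RNA of 20 livers was sequenced as paired fragments. The authors deposited raw counts per Entrez gene, a normalized signal, RPKM, a table with log2 fold changes and p-values, and gene lengths and coordinates. Per the deposited file names, reads were counted with Rsubread against RefSeq mm10 and tested with ROTS, whereas HISAT2 2.0.5 and DESeq2 are the tools in the submitters' processing notes. The deposited statistics set no multi-mapping fragments aside. The deposited signal equalled CPM over TMM library sizes (largest relative deviation 4.98e-15), and the deposited RPKM equalled that signal per kilobase. The authors' gene ontology table gives an FDR p-value per term. In the fragment statistics 18 columns were not used.

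Counts were fitted with edgeR 4.0.16 (R 4.3.3; filterByExpr with minimum count 10 and total 15, TMM, robust quasi-likelihood test, Benjamini-Hochberg over 13670 genes, threshold 0.05). The script was tested on simulated data. Log2 CPM has a prior count of 2. Relations used 100000 resamples (scipy 1.17.1). Motifs were matched by exact letters on both strands.

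The members, the lists and the tests were chosen with earlier results of these data known. Adjusted p-values printed for list genes come from the same contrast and are a description, not independent support. Named genes were all members and, of each list, up to 4 tested genes with the smallest adjusted p, with others marked where named; some genes that met the rule are not reported here, though the counts of the lists include them. Alternatives were DESeq2 size factors, upper-quartile factors, library size alone, no filter, a stricter filter (10 or more mice with a CPM of 1 or above), DESeq2 1.42.0, limma-voom (limma 3.58.1) with quality weights, limma-trend on the deposited RPKM (log2, pseudocount 0.1 or 1), and leaving out each mouse. For the relations, leaving out mice other than KO_391 was added after seeing the data. The labels name no batch, and no sample or gene was left out of the KO against WT test beyond the count filter.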

Additional observations from a re-analysis of the deposited data

Results flagged for a closer look

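Groups of 10 mice were screened for a lowest or highest mouse far from the rest, as the gap to its nearest neighbour divided by the range of log2 CPM. The limit was 0.466, chance passes it in about 1 in 20 groups, and 78 groups were looked at. Mouse KO_391 was the low KO mouse for Anxa2 (0.657; 17.8 CPM against 77.2 to 165.7 in the other 9), S100a11 (0.5185; 5.56 against 13.1 to 28.9 CPM), Plat (0.526; 1.19 against 1.97 to 3.08 CPM) and Plaur (0.4999; 0.358 against 1.51 to 5.65 CPM). It was also the low mouse for Capns1 (0.4665), Capn2 (0.473) and Prkca (0.62). Other low mice were KO_434 for S100a1 (0.5607; 37.4 against 50.2 to 63.2 CPM), KO_414 for Xkr9 (0.6; 15.6 against 18.2 to 20.2 CPM) and KO_425 for Atp8b1 (0.6306; 23.7 against 28.7 to 32.1 CPM). Among these groups 7 of 10 had mouse KO_391 as the low mouse, and its Hsd17b12 level of 50.6 CPM lay within the KO range.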

How the results depend on the processing

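No paired analysis was possible because no mouse number occurs in both genotypes and nothing else in the labels pairs mice. For Anxa2, Anxa3, Anxa4, Anxa5, Anxa6, Anxa7 and Anxa9 all 29 alternatives kept the direction and the call. Library size alone gave 0 annexins lower, 10 non-S100 partners higher and 1 lower, 0 membrane repair genes and 0 C2 genes lower, and 9 scramblases and flippases higher and 1 lower. It reversed Anxa11 (0.22), Pdcd6 (0.26), Sri (0.31), Chmp2a (0.23), Smpd1 (0.16), Atp8b1 (0.021, not called) and the relation of Anxa11 with S100a6 in KO (r = 0.20, not passed). With limma-voom and quality weights 2 C2 genes were lower and 5 scramblases and flippases higher. Leaving out 1 mouse gave 7 to 8 annexins higher and 1 lower, 1 to 2 C2 genes lower, and 3 to 5 scramblases and flippases higher. It gave 2 to 3 non-S100 partners lower and 4 to 6 higher. Without mouse KO_391 r was 0.53 for Anxa2 with S100a10, 0.72 for Anxa1 with S100a11, 0.65 for Anxa2 with Anxa5 and 0.12 for Anxa11 with S100a6, which reversed, and 0 of these 4 passed the permutation test. Leaving out each mouse of the genotype in turn, mostly added after seeing the data, gave r of 0.53 to 0.82 for Anxa2 with S100a10, 0.72 to 0.89 for Anxa1 with S100a11, 0.65 to 0.95 for Anxa2 with Anxa5 and -0.43 to 0.12 for Anxa11 with S100a6 in KO, the last reversing without KO_434 also (0.082). In WT Anxa2 with Anxa5 (-0.05 to 0.54, not passed) reversed without WT_415 (-0.050). The cause of these changes was not tested. Anxa13 rests on as few as 4 fragments in 1 mouse, and its difference (0.39, SE 0.29) was not called with TMM factors. Whether depth limited that call was not tested.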
